A study of Mus musculus with 6 samples.

Results

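Glucocorticoid-response genes and metallothioneins were examined in mouse LT-HSC, the haematopoietic stem cells that can rebuild blood for the longest time, early after sex steroid ablation (SSA). The group held 10 genes, chosen by name from the rows of the non-normalised array table: Fkbp5, Tsc22d3, Zbtb16, Klf9, Ddit4, Sgk1, Errfi1, Cebpd, Mt1 and Mt2. They were 10 of 28888 genes with a row, and each had 1 row under its own name. Of these, 9 passed the detection filter and were tested among 10821 genes. Cebpd did not pass it and is described from its raw signal.

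Total RNA was taken from LT-HSC sorted from the bone marrow (BM) of male mice of the strain given as C56 Bl/6, at an age of 2 months. SSA and sham-operated controls were compared on day 2 after surgery, with 3 Illumina BeadChip arrays a group. The labels give no method of ablation and no sorting markers, name no transgene or drug, and do not say whether each array came from a separate animal, so the tests see only the spread among these arrays, and that spread may be technical. Array names below are the group and the replicate number. The study asked what changes in the transcripts of these stem cells soon after sex steroid loss.

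Glucocorticoids are adrenal steroids released during stress, surgery included. They bind the glucocorticoid receptor (Nr3c1), which leaves a chaperone complex of Hsp90 and immunophilins, enters the nucleus and binds paired half-sites known as glucocorticoid response elements (GRE). The androgen receptor binds the same kind of element, and FKBP5, ZBTB16 and SGK1 are also known as androgen-induced genes in human prostate cells. Metallothioneins are small cysteine-rich proteins that hold zinc and copper. Their genes are induced by zinc through the factor Mtf1, which binds metal response elements (MRE), and by glucocorticoids.

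Median raw signal ran from 132.3 to 145.3 across the arrays, and 35.8% to 37.7% of rows were detected on each. The headers number the SSA arrays 4, 5 and 6 and the sham arrays 7, 8 and 12, and give no slide, so array order and group cannot be told apart. The stem cell label was checked against 12 LT-HSC markers: 11 were kept, with Gata2 and Ly6a among the highest in mean level, and Procr was detected on no array. Other markers, named after their values were seen, were dim. Raw signal ran from 129.6 to 167.1 for Fgd5, from 134.5 to 168 for Hlf and from 145.2 to 229.1 for Mecom. Background mean plus 3 SD was 148.8 to 165.38. Slamf1 (257.6 to 369.6) and Hoxb5 (328.5 to 706.4) lay above it on every array. The summed log2 level of this list was 13.95 to 13.99 in SSA and 13.60 to 13.89 in sham. In the same form the neutrophil and monocyte list (9 of 12 kept, led by Prtn3, Mpo and Ctsg) ran from 13.99 to 14.11 in SSA and from 14.14 to 14.67 in sham. The erythroid list (7 of 10 kept, led by Car1, Hba-a1 and Hbb-b1) ran from 12.36 to 13.76 in SSA and from 13.24 to 14.49 in sham. The eosinophil, basophil and mast cell list (7 of 9 kept) ran from 10.18 to 11.04 in SSA and from 11.86 to 12.13 in sham, the megakaryocyte list (7 of 7 kept) from 13.04 to 13.18 and from 12.62 to 13.27, the T and NK cell list (3 of 10 kept) from 11.11 to 11.24 and from 11.30 to 11.80, and the B cell list (4 of 9 kept) from 9.71 to 10.62 and from 9.77 to 10.05. The T cell genes Cd3d, Cd3e and Cd3g and the B cell genes Ms4a1 and Pax5 were detected on no array, while Cd79b, Cd74, Vpreb1 and Igll1 of the B cell list and Lck and Nkg7 of the T and NK cell list were detected on all 6.

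None of the 9 tested members was called between SSA and sham. By limma with Benjamini-Hochberg adjustment over all genes, 0 of 9 had an adjusted p under 0.05, where 0.00924% of all genes did, which was 1 gene, the eosinophil RNase Ear6. At an unadjusted limma p under 0.05 the count was again 0 of 9, against 8.47% of all genes, or 916, with 4.74% of all genes higher and 3.72% lower at that p. That count was 1 with limma's trend and robust options (Klf9), 1 without SSA 2 (Mt2), 1 without sham 1 (Klf9) and 3 with array weights (Klf9, Sgk1 and Ddit4). In the same 4 settings the count over all 10821 genes was 935, 822, 1806 and 3587. No member had groups that did not overlap, against 14.6% of all genes. The 9 members split into 3 with a higher mean in SSA (Klf9, Mt2 and Zbtb16) and 6 with a lower one. Their median difference was -0.11 on the log2 scale, where the median over all genes was 0.0084. On the log2 scale the 95% intervals were narrowest for Ddit4 and widest for Mt1, and each is given below. In bulk samples of this kind, fewer cells of a type and less RNA per cell cannot be told apart.

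**Figure D1:**
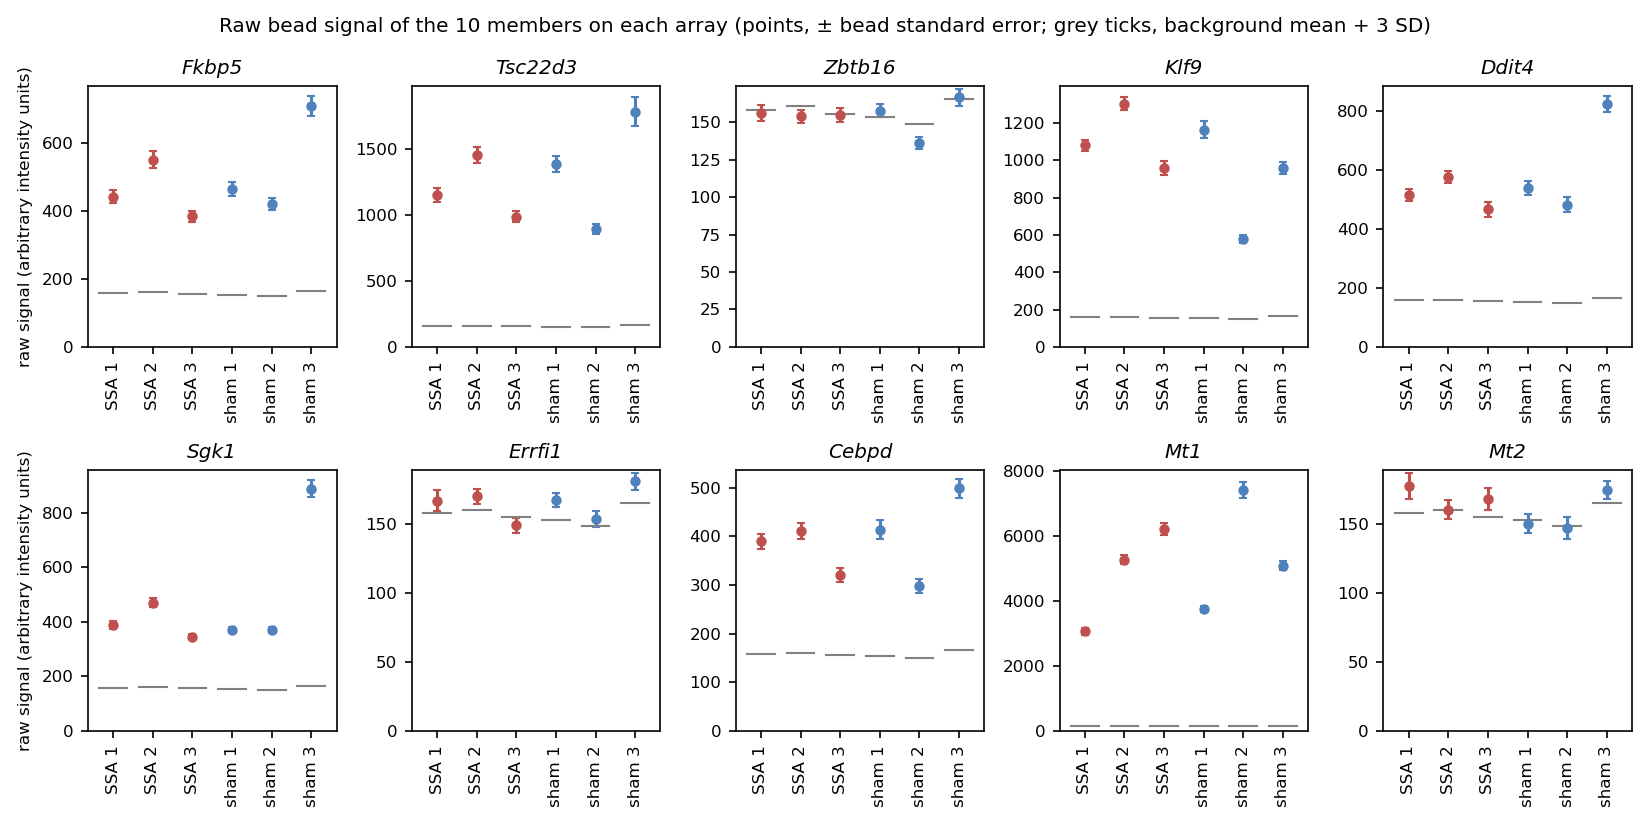
Raw signal of the 10 members (vertical axes from 0, arbitrary intensity units) on the 3 SSA arrays (red) and the 3 sham arrays (blue); error bars are the standard error over beads and grey ticks mark background mean plus 3 SD. Zbtb16, Errfi1 and Mt2 lie near the ticks, and sham 3 is the highest array for Fkbp5, Tsc22d3, Ddit4, Sgk1, Errfi1, Cebpd and Zbtb16 before normalisation.

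Fkbp5 and Tsc22d3 are the most widely used readouts of glucocorticoid receptor activity. Fkbp5 encodes an immunophilin that lowers the receptor's affinity for hormone and so closes a feedback loop. Its raw signal was 443.2, 551.8 and 385.0 on SSA arrays 1 to 3, and 465.1, 421.1 and 709.4 on sham arrays 1 to 3. Sham 3 was the highest array, and the other two sham arrays lay within the SSA range. The normalised log2 level was 8.45 ± 0.20 (SD, n = 3) in SSA and 8.59 ± 0.21 in sham, a log2 fold change of -0.14 with a standard error of 0.17 and a 95% interval of -0.55 to 0.26 (limma adjusted p = 0.821). As a ratio of SSA to sham this was 0.905, with an interval of 0.684 to 1.20. The log2 fold change was -0.027 without sham 3, -0.038 without SSA 3, and -0.24 without SSA 2; it was -0.23 without sham 1.

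Tsc22d3 encodes GILZ, a leucine zipper protein that carries part of the anti-inflammatory action of glucocorticoids. Raw signal for this gene was 1151.9, 1450.3 and 987.3 in SSA and 1386.0, 891.4 and 1779.1 in sham. The sham arrays held both the highest and the lowest value, with every SSA array between them. The log2 fold change was -0.065 with a standard error of 0.18, and its interval ran from -0.49 to 0.36 (limma adjusted p = 0.931). The sign turned to 0.026 without sham 3 and to 0.036 without SSA 3.

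Klf9 had the largest difference of the members with all 6 arrays weighted equally, though Sgk1's was larger with array weights and without sham 2, and Mt2's without SSA 2 and without sham 2. It encodes a Krüppel-like zinc finger repressor that glucocorticoids and thyroid hormone induce. Its normalised log2 levels were 10.05, 10.06 and 9.85 in SSA and 10.01, 9.12 and 9.33 in sham. Sham 2 and sham 3 lay below every SSA array, and sham 1 lay among the SSA arrays, so the groups overlapped. The means were 9.98 ± 0.12 (SD, n = 3) and 9.49 ± 0.47, a log2 fold change of 0.50 with a standard error of 0.24 and a 95% interval of -0.049 to 1.04, or a ratio of 1.41 (limma unadjusted p = 0.0690, adjusted p = 0.592). Without sham 1 the difference was 0.76 (limma adjusted p = 0.154), and without sham 2 it was 0.31. With arrays weighted by their quality, where sham 3 took a weight of 6.61 against 0.318 to 1.69 for the others, it was 0.66 and passed the test (limma adjusted p = 0.0268). The same weights called 1449 of all 10821 genes, against 1 with equal weights.

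The table also holds a row named 2310051E17Rik, an older name of Klf9. It is no member by the rule and was looked at after its values were seen. Its normalised log2 levels were 7.28, 7.26 and 7.10 in SSA and 6.97, 6.53 and 6.48 in sham. Here every SSA array was above every sham array, as in 8.47% of all genes, and sham 1 was again the highest sham array. Its log2 fold change was 0.55 with a standard error of 0.17 (limma unadjusted p = 0.0138, adjusted p = 0.564), which did not pass the test either. Both rows thus gave a positive difference of about the same size, from the same arrays.

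Zbtb16 encodes PLZF, a transcription factor with a role in stem and progenitor cells of the blood and in innate-like lymphocytes. Its signal was near background: the raw values were 156.2, 154.1 and 154.7 in SSA and 157.7, 136.0 and 166.6 in sham, and 2 of 6 arrays were over background mean plus 3 SD. The log2 fold change was 0.083 with a standard error of 0.19 and an interval of -0.35 to 0.51 (limma adjusted p = 0.911), a range on a dim row where the offset shrinks differences. Its sign was negative with array weights, with a median shift in place of quantile normalisation and without sham 2.

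Cebpd encodes C/EBP delta, a leucine zipper factor of the acute phase and of granulocyte differentiation. It stood apart in how it was measured, since the deposited score called it detected on 0 of 6 arrays while its signal was over background mean plus 3 SD on 6 of 6. The raw values were 389.8, 410.4 and 320.4 in SSA and 413.8, 298.0 and 498.5 in sham. In raw signal sham again held the highest and the lowest array, while after normalisation SSA 1 was the highest and sham 2 the lowest. An exact two-sided permutation test of the log2 raw signal gave p = 0.8, where 3 arrays against 3 cannot go below 0.1, and a fit that filtered on signal gave a log2 fold change of -0.032 (limma adjusted p = 0.964).

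Ddit4, Sgk1 and Errfi1 act on growth signalling. Ddit4 (REDD1) holds back mTORC1 and is induced by glucocorticoids, hypoxia and energy stress. On the arrays it had raw signals of 515.7, 575.3 and 466.4 in SSA and 540.2, 482.4 and 823.6 in sham. Sham 3 was the highest array and the remaining 5 overlapped. Its difference was a log2 fold change of -0.16 with a standard error of 0.16 and an interval of -0.52 to 0.21 (limma adjusted p = 0.774). It was -0.043 without sham 3, -0.24 without sham 1 and -0.31 with array weights (limma unadjusted p = 0.0222, adjusted p = 0.0936).

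Sgk1 encodes a serine/threonine kinase, activated downstream of PI3K, that raises sodium transport in the kidney. Its raw signal was 388.3, 470.5 and 345.9 in SSA and 371.4, 369.2 and 888.2 in sham. Only sham 3 was apart. The sham spread on the log2 scale was 8.48 ± 0.65 (SD, n = 3), against 8.18 ± 0.16 in SSA. The log2 fold change was -0.29 with a standard error of 0.31 and an interval of -1.0 to 0.41 (limma adjusted p = 0.784). It was 0.071 without sham 3, and -0.86 with array weights (limma adjusted p = 0.0472), which give sham 3 the weight stated above. Those weights called 1449 of all 10821 genes.

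Sgk1 has 6 promoters in the RefSeq table for build GRCm38.p6, each taken from 250 bases before to 50 bases after a start. The fifth is shown because it was 1 of 2 member promoters with a match to a full GRE, searched as the half-sites GNACA and TGTNC spaced by 3 bases, a pattern that reads alike on both strands. It lies at chr10:21993640-21993939 on the plus strand, 5′ of an Sgk1 start. Capitals mark the match, GAACAGAATGTTC, at -188 to -176 from that start.
Sgk1 promoter: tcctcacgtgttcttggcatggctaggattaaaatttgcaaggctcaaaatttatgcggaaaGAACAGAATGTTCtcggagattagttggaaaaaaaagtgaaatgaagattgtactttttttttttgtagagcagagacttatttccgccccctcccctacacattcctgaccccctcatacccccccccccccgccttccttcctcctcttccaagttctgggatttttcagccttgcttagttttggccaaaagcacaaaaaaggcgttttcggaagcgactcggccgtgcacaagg
The motif is rare, in 156 of 32851 promoters of that length, or 0.475%. The half-site AGAACA, which overlaps the full motif, is in 19% of them and was in 4 of 16 member promoters. A match is a description of these letters and not a site of binding. The array row does not tell which start was used.

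Errfi1 (MIG6) encodes an inhibitor of EGF receptor signalling. It was also near background, with raw values of 167.2, 170.6 and 149.3 in SSA and 167.5, 153.6 and 181.2 in sham. In raw signal SSA 3 and sham 2 were the lowest arrays and sham 3 was the highest. After normalisation sham 2 was the highest and SSA 3 the lowest, and the groups overlapped. SSA minus sham was -0.20 on the log2 scale with a standard error of 0.17 and an interval of -0.60 to 0.21 (limma adjusted p = 0.745). It was -0.040 without SSA 3, -0.32 without SSA 1 and -0.012 with the neqc background.

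**Figure D2:**
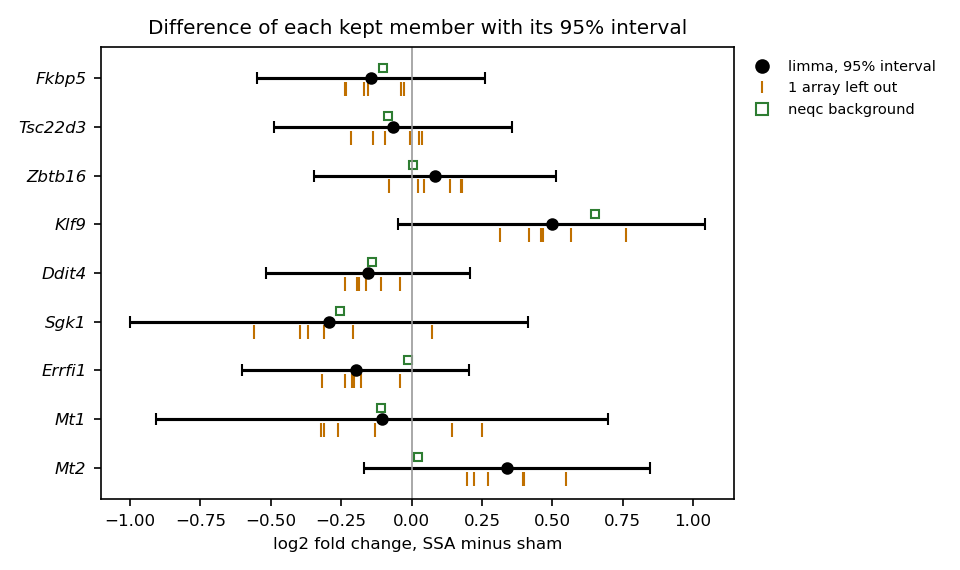
Log2 fold change, SSA minus sham, of the 9 tested members (black points, with 95% intervals), with each of the 6 arrays left out in turn (orange ticks) and with another background correction, neqc (green squares). Every interval includes 0. Klf9 stays above 0 in each setting drawn, from 0.31 to 0.76 when 1 array is left out, and so does Mt2. Fkbp5, Ddit4 and Errfi1 stay below 0, and Sgk1, Mt1, Tsc22d3 and Zbtb16 have ticks on both sides.

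Mt1 and Mt2 are neighbours on chromosome 8, with starts 6471 bases apart in GRCm38.p6. Both promoters are shown because MRE and GRE are the elements through which metallothionein genes are known to be induced. The MRE core was searched as TGCGCNC or TGCACNC on both strands and the GRE as above, and capitals mark the matches to either. The Mt1 promoter, chr8:94178839-94179138 on the plus strand, held 3 MRE cores and 1 GRE match, GGACATGATGTTC, at -94 to -82. The Mt2 promoter, chr8:94172368-94172667 on the plus strand, held 4 MRE cores and no full GRE in this window.
Mt1 promoter: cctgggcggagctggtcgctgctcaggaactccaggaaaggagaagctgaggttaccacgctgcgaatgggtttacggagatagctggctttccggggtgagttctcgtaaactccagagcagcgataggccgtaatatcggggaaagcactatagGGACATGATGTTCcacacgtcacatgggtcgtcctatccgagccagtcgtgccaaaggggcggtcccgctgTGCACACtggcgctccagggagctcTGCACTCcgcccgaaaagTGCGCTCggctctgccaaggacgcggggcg
Mt2 promoter: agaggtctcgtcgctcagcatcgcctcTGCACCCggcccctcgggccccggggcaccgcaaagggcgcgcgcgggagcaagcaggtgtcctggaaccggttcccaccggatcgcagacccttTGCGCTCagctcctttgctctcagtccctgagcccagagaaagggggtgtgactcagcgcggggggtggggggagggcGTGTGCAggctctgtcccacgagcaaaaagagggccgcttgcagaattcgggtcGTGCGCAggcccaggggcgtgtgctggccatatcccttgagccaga
An MRE core was in 25.7% of all promoters, and 4 or more were in 0.517%. Outside the metallothioneins, Ddit4 and the sixth Sgk1 promoter held 1 core each. Promoters were matched for 8 of 10 members, 16 in all. Zbtb16 and Cebpd were not matched.

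Mt1 varied more between arrays of one group than any other member, relative to its bead error. Its raw signal was 3057.4, 5264.1 and 6206.9 in SSA and 3756.7, 7398.2 and 5078.0 in sham. SSA 1 and sham 1 were the lowest arrays, sham 2 and SSA 3 the highest, and the groups overlapped throughout. The log2 level was 12.16 ± 0.47 (SD, n = 3) in SSA and 12.27 ± 0.63 in sham. The log2 fold change was -0.11 with a standard error of 0.35, a ratio of 0.930, with a 95% interval of 0.533 to 1.62 (limma adjusted p = 0.943). The sign turned to 0.14 without SSA 1 and to 0.25 without sham 2. The within-group SD of 0.554 was 13.0 times the error expected from the spread over beads, 0.0426. Bead error is measured within an array and leaves out technical differences between arrays.

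Mt2 was near background, over background mean plus 3 SD on 3 arrays. Its raw signal was 177.6, 160.6 and 168.6 in SSA and 150.5, 147.4 and 174.8 in sham. SSA 1 was the highest array, and sham 3 lay within the SSA range. The log2 fold change was 0.34 with a standard error of 0.22 and an interval of -0.17 to 0.85 (limma adjusted p = 0.657), and it was 0.024 with the neqc background, whose fitted background SD was far larger. It was 0.55 without SSA 2 (limma unadjusted p = 0.0254, adjusted p = 0.633), 0.20 without SSA 1 and 0.22 without sham 1. Across the 6 arrays Mt1 and Mt2 had a Pearson correlation of -0.0357, which is a description over arrays that share a normalisation, with Mt2 within 1.29 times its bead error.

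For the other members the same ratio of within-group SD to bead error was 7.77 for Sgk1, 5.88 for Klf9, 3.15 for Tsc22d3, 2.38 for Fkbp5, 2.16 for Cebpd and 1.99 for Ddit4. It was 1.20 for Zbtb16 and 1.19 for Errfi1, whose arrays thus differed by little more than their bead error. The arrays that stood out were not the same for every member. Sham 3 was the highest array after normalisation for 4 of the 9 tested members, Fkbp5, Tsc22d3, Ddit4 and Sgk1, and it was the highest array for 13.7% of all genes. Over the 6 arrays, Sgk1 had a Pearson correlation of 0.952 with Ddit4 and of 0.884 with Fkbp5, and Tsc22d3 had one of 0.892 with Cebpd. Mt1 went the other way, at -0.830 with Tsc22d3 and -0.964 with Cebpd. These correlations have n = 6 arrays, which share a normalisation. Sham 3 was the highest array for Sgk1, Ddit4 and Fkbp5 alike.

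Levels of other cell types and of handling genes are given beside these patterns. In the order from high to low, Mt1 ran sham 2, SSA 3, SSA 2, sham 3, sham 1, SSA 1, and the summed erythroid list ran sham 2, SSA 3, sham 3, SSA 2, sham 1, SSA 1. The summed neutrophil and monocyte list was also highest on sham 2 and lowest on SSA 1. By median deviation that list was highest on sham 1, at 1.57 against 0.70 on sham 2 (log2). Of all genes, 26.6% were highest on sham 2 and 16.1% were lowest on SSA 1. The median deviation of the erythroid list from its mean was -0.92, 0.055 and 0.29 in SSA and -0.35, 0.90 and 0.068 in sham (log2). The immediate-early and dissociation list, genes that respond within minutes to handling of cells, had median deviations of -1.58, 0.27 and -1.42 in SSA and -0.59, 1.64 and 1.96 in sham, with sham 3 the highest. On sham 2, where that list stood at 1.64, the deviations of Sgk1, Ddit4 and Fkbp5 were -0.056, 0.016 and 0.018. Whether erythroid RNA has a part in Mt1, or handling in Sgk1, Ddit4 and Fkbp5, was not tested.

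**Figure D3:**
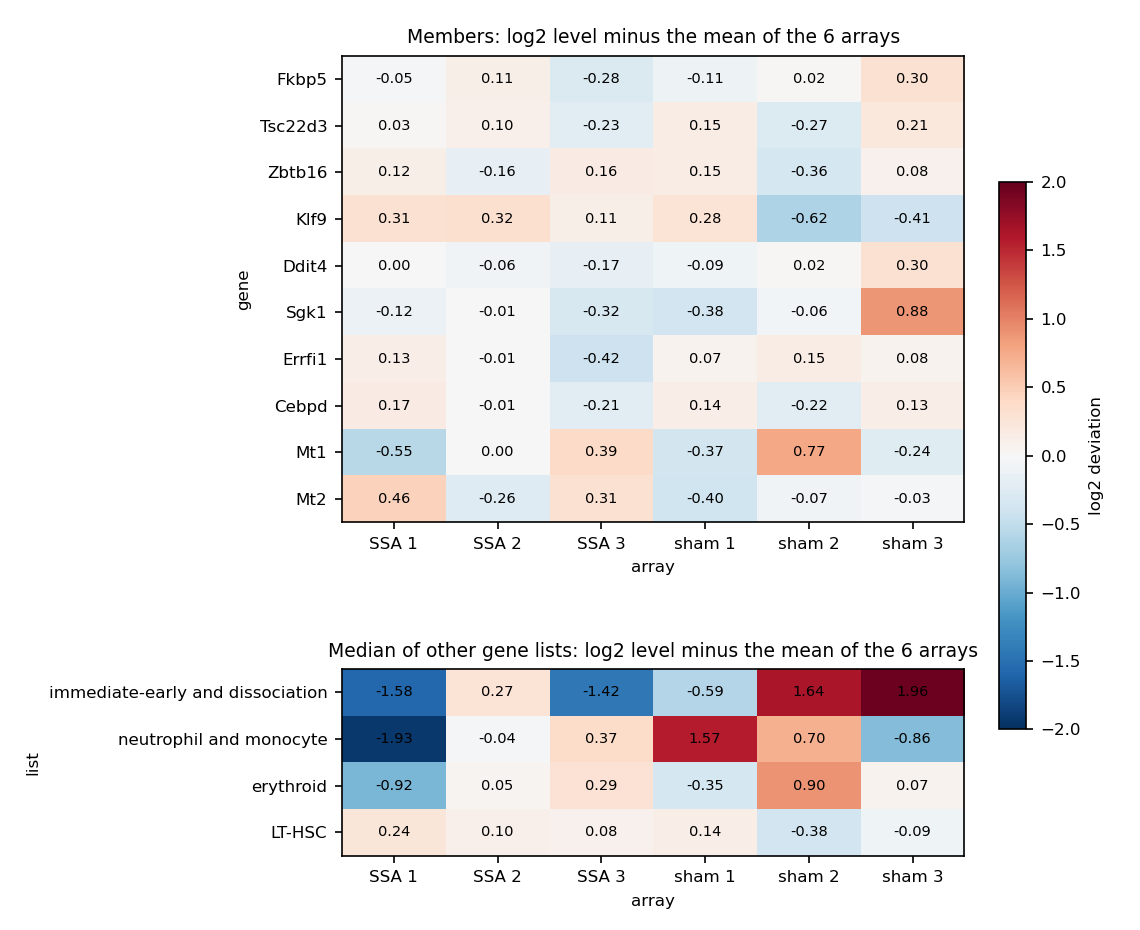
Deviation of the log2 level on each array from the mean of the 6 arrays, for the 10 members (top) and as the median of 4 other gene lists (bottom); red is above and blue below that mean. Sgk1 is highest on sham 3, Mt1 on sham 2 and lowest on SSA 1, and the erythroid list has its highest and lowest array in the same places as Mt1. Of all genes, 26.6% are highest on sham 2 and 16.1% are lowest on SSA 1.

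Other genes of the pathway came from lists chosen as background. Of the receptor and its chaperone and cofactor machinery, 9 of 16 genes were kept, 3 higher and 6 lower in mean, the median difference was -0.16 (log2), and 0 were called. The receptor gene Nr3c1 and the mineralocorticoid receptor gene Nr3c2, which also binds glucocorticoids, were detected on 0 arrays. Nr3c1 raw signal ran from 123.9 to 145.0 (exact permutation p = 0.3), so its level could not be followed on this row. At an unadjusted limma p under 0.05 there were 1 higher and 3 lower, where 4.74% of all genes were higher and 3.72% lower. The lowest p-values belonged to Stip1 (Hop), which links Hsp70 to Hsp90, at -0.48 with a standard error of 0.17, to the corepressor Ncor1, at -0.38 with 0.15, and to the Hsp90 gene Hsp90ab1, at -0.36 with 0.15. In each of these 3 every SSA array was below every sham array, a pattern that 6.09% of all genes showed, and their limma adjusted p was 0.564 for Stip1 and Ncor1 and 0.569 for Hsp90ab1.

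Of 25 other genes known to respond to glucocorticoids, 19 were kept, 7 higher and 12 lower, the median difference was -0.10 (log2), and 0 were called. Dusp1, a phosphatase that shuts off MAP kinases, stood at -1.75 with a standard error of 0.62, and Zfp36, which destabilises cytokine mRNA, at -1.87 with 0.68. Both belong to the immediate-early list too. Tgm2, a transglutaminase, stood at 0.56 with 0.21, and its SSA arrays were all above its sham arrays, as in 8.47% of all genes. The limma adjusted p of these 3 was 0.564 each.

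Of the metal response and zinc transport list, 13 of 23 genes were kept, 5 higher and 8 lower, and the median difference was -0.016 (log2). None was called, and none had an unadjusted limma p under 0.05. Mtf1, the zinc-sensing factor that drives the metallothioneins, had log2 levels of 6.53, 6.76 and 6.87 in SSA and 6.57, 7.34 and 7.10 in sham, and its difference was -0.28 with a standard error of 0.22 (limma adjusted p = 0.713). Slc30a1, a zinc exporter and another Mtf1 target, stood at 0.41 with 0.23 (limma adjusted p = 0.625). The ZIP family zinc transporter Slc39a11 stood at -0.34 with 0.16, and the Slc30 family member Slc30a9 at -0.33 with 0.16, with limma adjusted p of 0.594 and 0.595. Raw signal ran from 152.8 to 181.9 for Slc30a1 and from 146.7 to 162.6 for Slc30a9. Both were near background mean plus 3 SD, which was 148.8 to 165.38.

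The immediate-early and dissociation list stood lower. All 17 kept genes of 24 had a lower mean in SSA. The median difference was -1.87 (log2), with 11 genes at an unadjusted limma p under 0.05, against 3.72% of all genes lower at that p, and 0 were called. In 2 of the 17 every SSA array was below every sham array, a pattern that 6.09% of all genes showed. The list's median deviation was 0.27 on SSA 2, above the -0.59 of sham 1, so the arrays of the 2 groups were mixed in order. The smallest p-values were those of the AP-1 gene Jund, at -1.57 with a standard error of 0.44, and of the inducible Hsp70 genes Hspa1b, at -2.93 with 0.93, and Hspa1a, at -3.65 with 1.19, each with a limma adjusted p of 0.564. Hspa1a and Hspa1b are near-identical copies, so their signals may be shared.

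**Figure D4:**
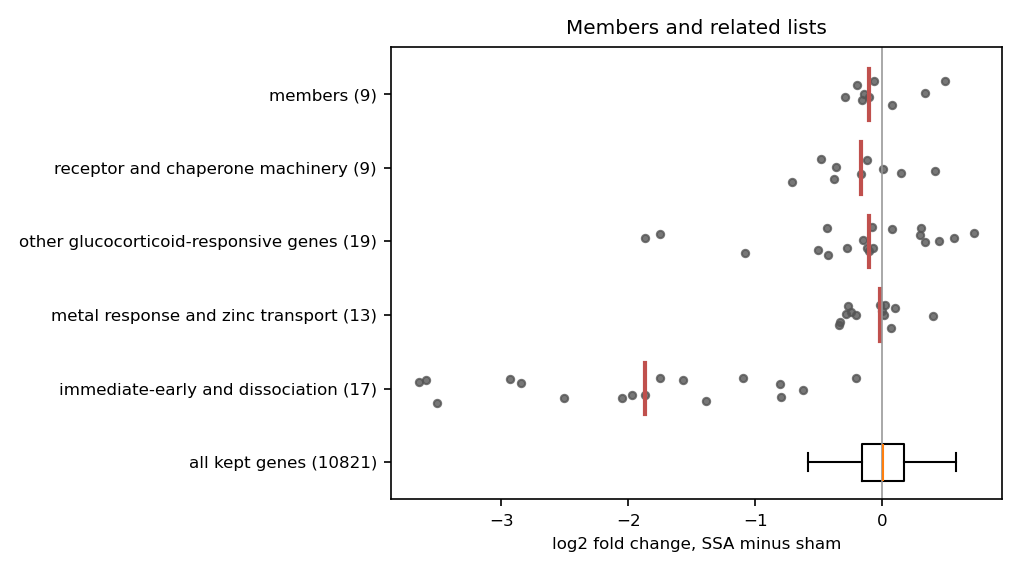
Log2 fold change, SSA minus sham, of each kept gene (points) of the members and of 4 lists, with the median of each list (red bars) and, at the bottom, all 10821 kept genes (box, quartiles; line, median). The members centre at -0.11, and all 17 immediate-early genes lie below 0 around -1.87.

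Pearson correlation over the 6 arrays was searched among 8474 kept genes, leaving out clone and provisional names. The genes closest to Fkbp5 were Car12 at 0.985, Cep152 at 0.985 and Irak2 at 0.980. Those closest to Tsc22d3 were Tmx4 at 0.993, Tapt1 at 0.985 and Lnpep at 0.983. Those closest to Mt1 were Pla2g12a at 0.998, Spata24 at 0.998 and Oard1 at 0.993. None of the 3 lists held another member. With 6 arrays and a search this wide, values of this size describe the array profile.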

How the data were processed

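The authors measured 3 SSA and 3 sham arrays (MouseWG-6 V2.0), 1 intensity value per gene and array, deposited with no background correction and no normalisation, per the file headers (GenomeStudio 1.8.0). The authors also deposited a detection score per gene and array, a fraction from 0 to 1, read as 1 minus a detection p, and the number of beads and their SD, from which a bead standard error was computed here. The series matrix equalled the raw signal minus 126.6 to 138.1 per array within 0.1 and was an alternative. Of the table's columns, 12 with no sample were not used.

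Signals were corrected by normexp with each array's background mean and SD read from the detection curve (126.44 to 137.87 and 7.453 to 9.17), with an offset of 16, quantile normalisation and log2, in limma 3.58.1 and R 4.3.3. This replaced neqc, whose background SD was 194.91 to 302.65. Rows with detection p under 0.05 on at least 3 of 6 arrays were kept, 1 row per symbol (NCBI table of GRCm38.p6). SSA was compared with sham by limma, two-sided, with Benjamini-Hochberg adjustment over 10821 genes. Cebpd, Nr3c1 and Nr3c2 had an exact permutation test. The number of arrays limits precision. The code was tested on simulated data.

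The members, the lists and the settings were chosen with earlier results of these data known. Named genes were all members, any called list gene, the 3 kept genes of smallest p per pathway list, Nr3c1, Nr3c2, Mtf1 and Slc30a1, the 3 kept genes of highest mean per cell type list (printed for LT-HSC, myeloid and erythroid lists, and some of these genes are not reported here) and the 3 genes most correlated with Fkbp5, Tsc22d3 and Mt1. Alternatives were other background corrections, scalings, filters and offsets, limma's trend and robust options, array weights, a replicate block and each array left out. Slides are not given in the sources used here.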

Additional observations from a re-analysis of the deposited data

How the results depend on the processing

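No member passed the test under any alternative except array weights, which called 2, Klf9 and Sgk1. Genes called (1 as reported) numbered 0 with neqc, with no background correction, with no filter and with a signal filter and neqc, 3 with a median shift in place of quantiles, 1449 with array weights, 4 with the replicate block, and 0 to 4 with 1 array left out. Genes at an unadjusted p under 0.05 (916) numbered 534 with the median shift, where 27.9% of them lay above sham, compared with 56.0% as reported, 2062 with no filter, 3587 with array weights and 463 to 1806 with 1 array left out. With array weights, calls numbered 2 in the receptor list, 6 in the other glucocorticoid-responsive list, 2 in the metal list and 15 in the immediate-early list, where leaving out 1 array gave 0 to 2. These weights rest mostly on sham 3. The members' median ran from -0.21 to 0.026 with 1 array left out. The receptor list's median was -0.26 with detection on all arrays and -0.36 with a signal filter. The other glucocorticoid-responsive list's median was -0.025 with neqc, with or without a signal filter, -0.17 with the median shift and -0.0022 with array weights. The metal list's was -0.19 with array weights. Signs turned for Zbtb16, to -0.012 with the median shift and -0.054 with array weights, and with 1 array left out it ran from -0.079 to 0.18. In the same way Mt1 ran from -0.32 to 0.25, Tsc22d3 from -0.21 to 0.036 and Sgk1 from -0.56 to 0.071. The cause was not tested beyond the arrays named. Klf9 and Mt2 were positive, and Fkbp5, Ddit4 and Errfi1 negative, in all 20 settings. Same-numbered arrays had deviations correlated at 0.399, -0.00868 and -0.195, and other SSA and sham pairs at -0.467 to 0.372. With 3 arrays a group, these values cannot decide whether the numbers pair the arrays. The replicate block changed no member's call. Zbtb16, Errfi1 and Mt2 are limited by signal near background.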

Other observations

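Hsd11b1, the enzyme that regenerates active glucocorticoid inside cells, belongs to the receptor list and was picked out after its values were seen. Its log2 levels were 5.40, 5.37 and 5.54 in SSA and 5.94, 6.95 and 5.55 in sham, so every SSA array was below every sham array. Of all genes, 6.09% showed this pattern. Here SSA 3 and sham 3 were nearly equal, and sham 2 was the highest array. Raw signal of Hsd11b1 ran from 158.5 to 212.1, near background mean plus 3 SD, which was 148.8 to 165.38. Its log2 fold change was -0.71 with a standard error of 0.33 (limma adjusted p = 0.592).

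Cebpd was not alone in having a bright signal with no detection call: on each array, 967 to 1083 rows were not detected although their signal was over background mean plus 3 SD.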
